A study of Mus musculus with 18 samples.

Results

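The calmodulins, the kinases they switch on and the phosphatase calcineurin were followed through 9 genes: Calm2, Calm3, Camk1, Camk2d, Camk2g, Camkk2, Ppp3ca, Ppp3cb and Ppp3r1. They were taken by symbol, as every probe of the array annotated to these genes, without regard to their values. The 9 genes, of 17711 with a probe of 1 symbol, had 26 probes, of which 14 were detected on at least 1 array and were tested among 21413 such probes. Every member kept at least 1 probe.

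The cells were factor-dependent myeloid (FDM) cells, mouse myeloid progenitors transformed with HoxB8 that need the cytokine interleukin-3 (IL-3) to live. The groups were p53-/- FDM cells at 0, 6 and 18 h without IL-3 and WT FDM cells at the same times, where 0 h stands for cells growing in IL-3. Each group held 3 Illumina MouseWG-6 arrays, 1 from each of 3 independent clones per genotype, so the genotypes also differ in their clones. All lines carry the HoxB8 transformation.

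Calmodulin is a small protein that binds calcium ions and, once loaded, docks on other proteins and changes their activity. Several mouse genes encode the identical calmodulin protein, Calm2 and Calm3 among them. Among its best known clients are the calmodulin-dependent kinases, with Camkk2 as an upstream kinase that phosphorylates Camk1 and AMP-activated kinase, and calcineurin, the phosphatase that sends the NFAT transcription factors into the nucleus. Calcineurin is built of a catalytic subunit, encoded by Ppp3ca or Ppp3cb, and a calcium-binding regulatory subunit, encoded by Ppp3r1, and in blood cells it is known as the target of cyclosporin.

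The 18 arrays had median raw intensities between 102.9 and 175.2, and 30.69 to 34% of their probes were detected, except for 27.01% on the third p53-/- array at 18 h, which was given a low weight in the fit. No probe of Trp53 was analysed here. The p53 target Cdkn1a, by its first probe, read 7.80, 9.33 and 10.01 (lowest, median and highest normalized log2 intensity) over the 9 p53-/- arrays, against 9.08, 11.90 and 12.57 over the 9 WT arrays. Values below are normalized log2 intensities of 1 probe on single arrays, which compare arrays but not probes, and a difference of 1 is 2-fold. Changes are weighted log2 differences from limma with their standard errors (SE), so they need not equal the difference of plain means. The weights were uneven, from 0.0905 for that p53-/- array to 4.34 for WT 0 h replicate 2, beside 0.786 and 0.906 for WT 0 h replicates 1 and 3. A probe was called where its adjusted p (Benjamini-Hochberg over the 21413 probes) was at most 0.1 and its B statistic, the log odds of a true difference, was above 0.

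Between genotypes, the members that were called were all lower in p53-/- cells. Calm2 was called in growing cells, Camk2g and Ppp3ca were called after 6 h and 18 h without IL-3, and Camkk2 probe 2, detected on few arrays, was called at 18 h. The calls were 1 of 14 member probes at 0 h (7.14%), 2 of 14 at 6 h (14.3%) and 4 of 14 from 3 genes at 18 h (28.6%), every call a lower level in p53-/- cells. Over all tested probes, 4.33% were called at 0 h (1.98% higher and 2.35% lower), 8.05% at 6 h (3.82% higher and 4.23% lower) and 7.43% at 18 h (3.68% higher and 3.75% lower). The counts at 0 h and 6 h stood close to that background. The count at 18 h includes Camkk2 probe 2, which passed the detection filter only through WT arrays without IL-3, so this call is not read as support and 3 calls from Camk2g and Ppp3ca remain. Single arrays moved these counts. At 0 h, 2 were called without WT 6 h replicate 1 and 3 without WT 6 h replicate 3, and at 6 h, 1 was called without p53-/- 6 h replicate 1. At 18 h no member was called without p53-/- 18 h replicate 1, p53-/- 18 h replicate 2 or WT 18 h replicate 2, 1 was called without WT 18 h replicate 1 and 2 without WT 18 h replicate 3. The median log2 difference of the 14 probes was -0.20 at 0 h, -0.17 at 6 h and -0.37 at 18 h, beside 0.04, 0.02 and 0.02 over all tested probes.

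**Figure D1:**
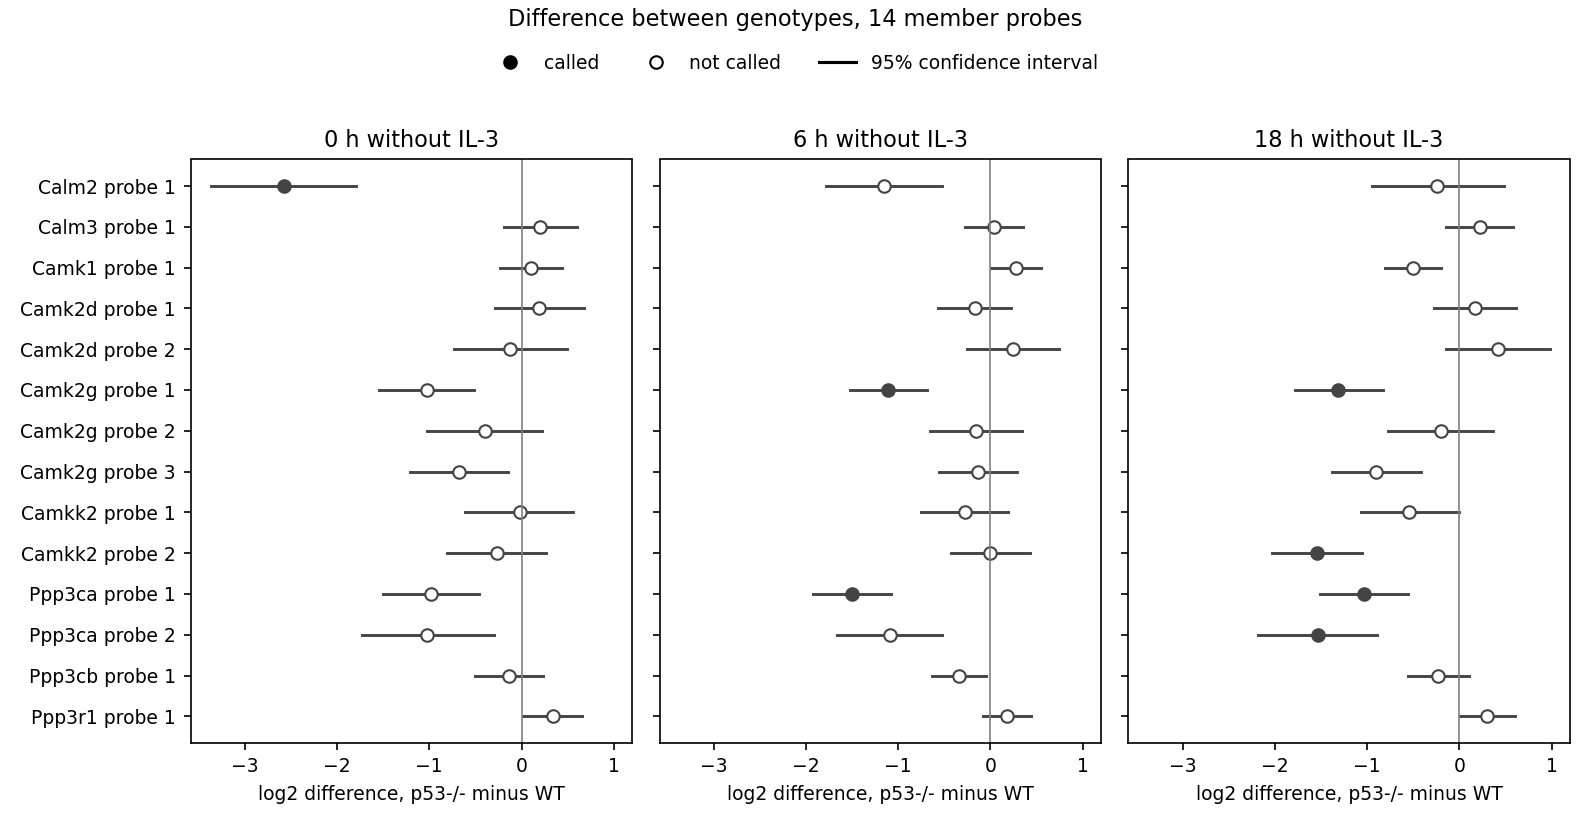
Log2 difference, p53-/- minus WT, for the 14 tested member probes at 0, 6 and 18 h without IL-3, with 95% confidence intervals. Filled points were called. Calm2 lies farthest left at 0 h (-2.58), and Camk2g probe 1 and both Ppp3ca probes lie left of 0 at all 3 times.

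Calm2 showed the largest genotype difference among the members at 0 h. In growing p53-/- cells its probe read 5.80, 5.65 and 4.98 and was detected on 1 of 3 arrays, against 8.20, 8.15 and 7.43 in growing WT cells. Every p53-/- array at 0 h lay below every WT array. The log2 difference was -2.58 ± 0.369 (SE, n = 3 each), 5.99-fold lower in p53-/- cells (limma adjusted p = 0.000994), and it was called whichever of the 18 arrays was left out (-2.71 to -2.33). Its size depended on the processing. The difference was -1.13 with no background correction and -0.63 in the authors' processed values, and it was called in both.

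After 6 h without IL-3 the Calm2 probe read 7.05, 6.88 and 6.79 in p53-/- cells and 8.34, 7.77 and 8.44 in WT cells. The groups did not overlap, yet the difference of -1.15 ± 0.295 was not called (limma adjusted p = 0.0113, B = -1.19). At 18 h the values were 5.86, 7.02 and 5.14 in p53-/- cells and 6.69, 6.49 and 7.48 in WT cells, which overlapped, with a difference of -0.24 and a 95% interval of -0.95 to 0.48.

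The Calm2 level followed different courses in p53-/- and WT cells. In p53-/- cells the log2 change between 0 h and 6 h was 1.48 ± 0.392, with no overlap between the groups. It was not called (limma adjusted p = 0.0523), and it was called with the replicate number, taken to mark the clone, as a fixed block (1.57). In WT cells Calm2 fell between 6 h and 18 h, by a log2 change of -1.42 ± 0.285 (limma adjusted p = 0.00245), and between 0 h and 18 h, by -1.38 ± 0.273 (limma adjusted p = 0.000804), although the highest 18 h value of 7.48 lay just above the lowest 0 h value of 7.43. The change over 18 h differed between p53-/- and WT cells by 2.35 ± 0.499 (limma adjusted p = 0.0289). That difference was 1.07 with no background correction, 0.60 in the authors' processed values, 1.57 with no array weights, 2.06 with no filter on detection and 2.34 with only the arrays compared, and none of these was called. The WT falls were -0.76 and -0.73 with no background correction and -0.45 and -0.43 in the authors' values, all called, and neither was called with no filter (-1.36 and -1.16), no weights (-1.30 and -1.04) or only the arrays compared (-1.41 and -1.39).

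Single arrays bore on the Calm2 time courses. The WT fall between 6 h and 18 h was not called without WT 6 h replicate 1 (-1.43), WT 18 h replicate 1 (-1.11) or WT 18 h replicate 2 (-1.01). The WT fall between 0 h and 18 h was not called without WT 0 h replicate 1 (-1.11), WT 0 h replicate 2 (-1.14), WT 18 h replicate 1 (-1.07) or WT 18 h replicate 2 (-0.96). For the difference in change, leaving out those 4 arrays, p53-/- 0 h replicates 2 or 3, or p53-/- 18 h replicates 1 or 2 ended the call, with values from 1.42 to 2.39.

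In order of mean Calm2 level the groups ran WT 6 h (8.18), WT 0 h (7.93), p53-/- 6 h (6.91), WT 18 h (6.88), p53-/- 18 h (6.00) and p53-/- 0 h (5.48). Only WT 0 h and p53-/- 6 h, of the neighbours in that order, did not overlap.

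Calm3 encodes the same protein, and its probe was detected on all 18 arrays, with no call in any comparison. At 0 h it read 13.94, 13.38 and 13.72 in p53-/- cells and 13.57, 13.47 and 13.43 in WT cells. At 6 h it read 13.20, 13.58 and 13.70 in p53-/- cells and 13.52, 13.33 and 13.34 in WT cells. At 18 h it read 13.74, 13.60 and 14.44 in p53-/- cells and 13.48, 13.53 and 13.20 in WT cells, where the groups did not overlap and the p53-/- value of 14.44 came from the array with the low weight. The genotype difference was 0.20 at 0 h (95% interval -0.19 to 0.60), 0.04 at 6 h (-0.28 to 0.35) and 0.22 at 18 h (-0.14 to 0.58). Each of these intervals left out a loss of the size of the one in Calm2 at 0 h. Hybridisation of these probes to other calmodulin transcripts was not tested.

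**Figure D2:**
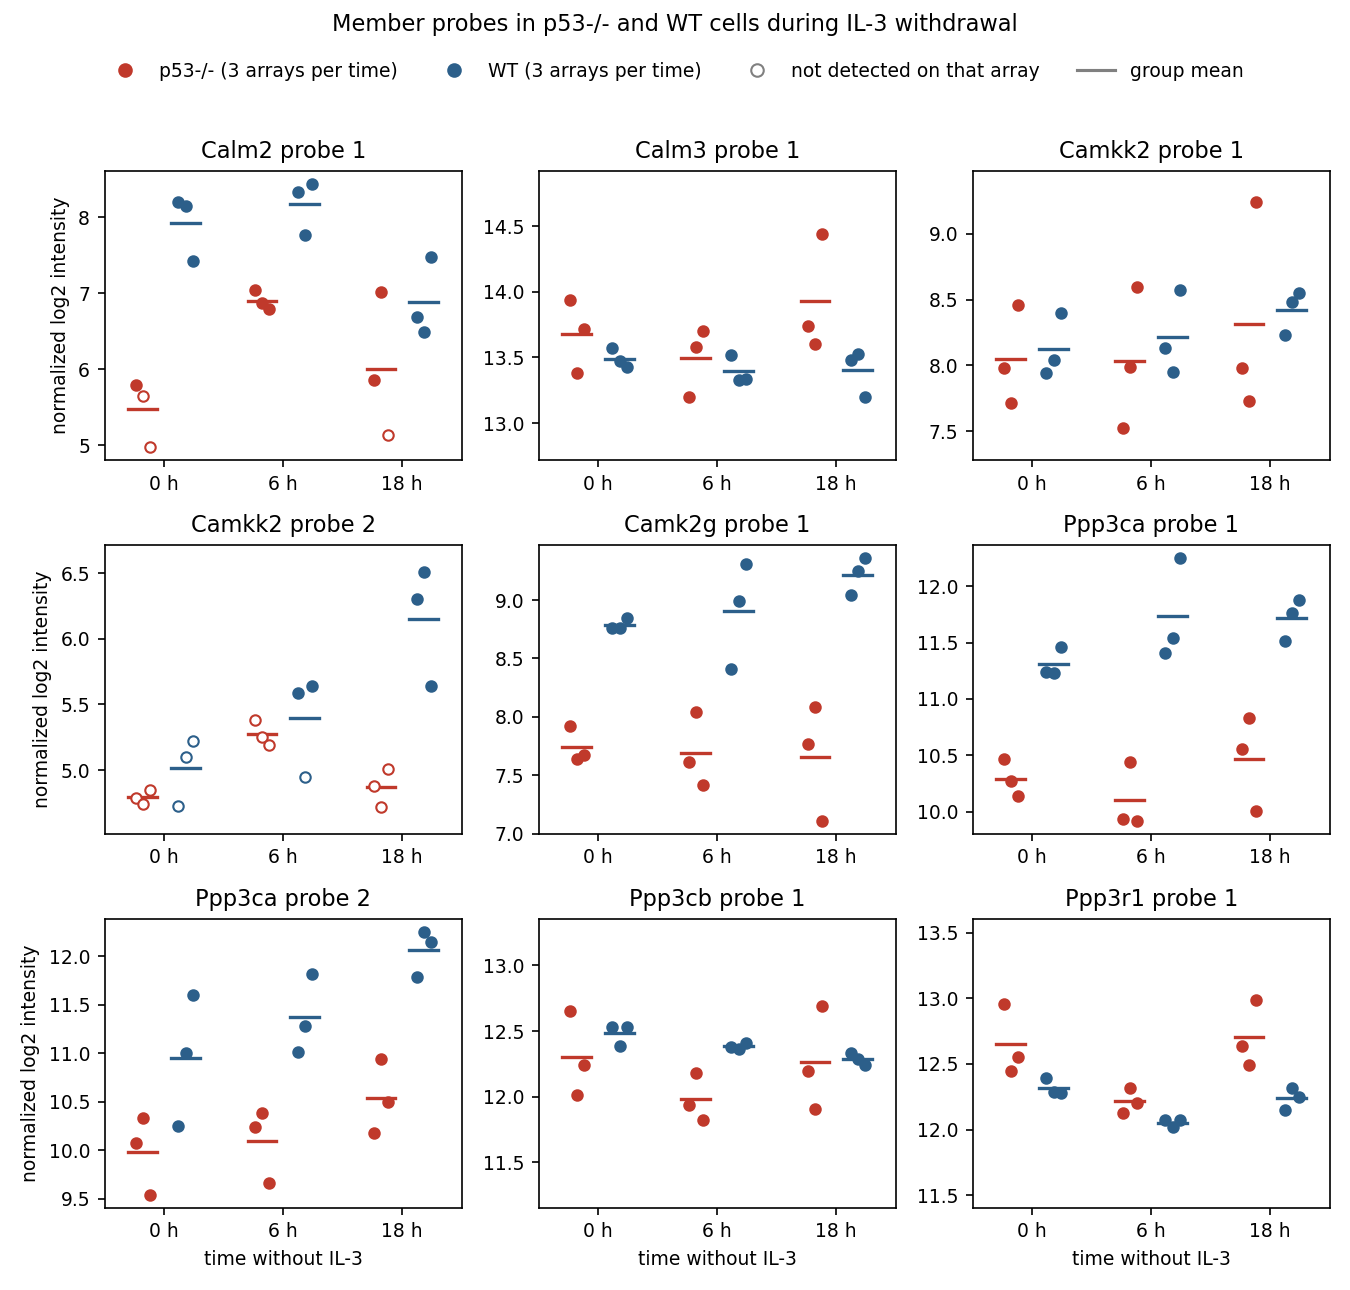
Normalized log2 intensity of 9 member probes on each of the 18 arrays against time without IL-3 in hours, p53-/- left of WT at each time. Open points were not detected, and bars are plain means of 3 arrays. All 9 p53-/- values of Camk2g probe 1 and of Ppp3ca probe 1 lie below all 9 WT values. For Calm3, Ppp3cb and Ppp3r1 the p53-/- and WT values lie closer together, though those of Ppp3r1 are higher in p53-/- cells at each time.

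Of the kinases, Camk2g, the gamma subunit gene of calmodulin-dependent kinase II, separated the genotypes. Its probe 1, detected on all 18 arrays, read 7.92, 7.64 and 7.67 in p53-/- cells at 0 h and 8.76, 8.76 and 8.85 in WT cells. At 6 h it read 7.61, 8.04 and 7.42 in p53-/- cells and 8.41, 8.99 and 9.31 in WT cells, and at 18 h it read 7.77, 8.08 and 7.11 in p53-/- cells and 9.04, 9.25 and 9.36 in WT cells. No p53-/- array reached the lowest WT array at any time, the closest values being 8.08 and 8.41. The difference was called at 6 h (-1.11 ± 0.196, limma adjusted p = 0.00115) and at 18 h (-1.31 ± 0.223, limma adjusted p = 0.000989) and just missed the condition on B at 0 h (-1.03 ± 0.245, limma adjusted p = 0.0132, B = -0.35).

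Between p53-/- and WT cells the change in Camk2g from 0 h differed by -0.07 at 6 h (95% interval -0.74 to 0.59) and by -0.27 at 18 h (-0.98 to 0.43), neither of them called. In the authors' processed values the genotype difference was -0.53 at 6 h and -0.67 at 18 h, both called. The 6 h call was lost without p53-/- 6 h replicate 1 (-1.16) and with only the arrays compared (-1.10). The 18 h call was lost without WT 18 h replicate 2 (-1.29), p53-/- 18 h replicate 1 (-1.62) or p53-/- 18 h replicate 2 (-1.77). The other 2 tested Camk2g probes, detected on 16 and 12 arrays, were not called in the main fit. With median scaling in place of quantile normalization, probe 3 was called between genotypes at 18 h (-0.66, limma adjusted p = 0.000925). Probe 3 was undetected in p53-/- cells at 0 h, so no size is given there. It had log2 differences of -0.13 at 6 h and -0.90 at 18 h, where 1 of 3 p53-/- arrays detected it. Probe 2 had log2 differences of -0.40 at 0 h, -0.16 at 6 h and -0.20 at 18 h.

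Camkk2, the kinase that activates other calmodulin-dependent kinases, had probes that differed in call. Probe 1, detected on all 18 arrays, was not called in the main fit. At 18 h it read 7.98, 7.73 and 9.24 in p53-/- cells and 8.23, 8.48 and 8.55 in WT cells. The log2 difference was -0.54 ± 0.251 (limma adjusted p = 0.152). With median scaling that difference was -0.82 and was called (limma adjusted p = 0.00111). The 9.24 was again the low-weight array.

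Camkk2 probe 2 was detected on 5 of 18 arrays, all of them from WT cells without IL-3. At 0 h it read 4.79, 4.74 and 4.85 in p53-/- cells and 4.73, 5.10 and 5.22 in WT cells, all undetected. At 18 h it read 4.88, 4.72 and 5.01 in p53-/- cells, all undetected, and 6.30, 6.51 and 5.64 in WT cells, all detected. Since no p53-/- array detected the probe, the genotype difference at 18 h is given as a bound, at least 1.28-fold lower in p53-/- cells (limma adjusted p = 0.000401). The probe entered the test only through the WT groups in which it is high, so a difference was built into its selection and the p is a description. The bound sets the WT mean against the mean, over the p53-/- arrays, of the higher of the probe's own signal and the lowest signal of any detected probe. The call was lost without p53-/- 18 h replicates 1 or 2, or WT 18 h replicates 1 or 2. The remaining Camkk2 probe was undetected throughout.

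Camk1, a kinase that Camkk2 phosphorylates, had its single probe detected on 1 of 18 arrays, in WT cells at 18 h. It lay between 4.99 and 5.60 on the 9 p53-/- arrays and between 4.88 and 5.77 on the 9 WT arrays. Camk2d, the delta subunit gene of kinase II, had 10 probes, of which 8 were undetected on every array. Of its other 2 probes, the first lay between 5.03 and 6.60 on the p53-/- arrays and between 5.07 and 5.65 on the WT arrays and was detected on 3, the highest value being that of the low-weight array. The second was detected on 1 array (5.75, p53-/- at 6 h). No comparison called these 2 Camk2d probes.

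Calcineurin differed between its catalytic subunit genes. Ppp3ca was lower in p53-/- cells, while Ppp3cb was close in both genotypes. By its first probe, Ppp3ca read 10.47, 10.27 and 10.14 in p53-/- cells at 0 h against 11.24, 11.23 and 11.46 in WT cells. At 6 h it read 9.94, 10.44 and 9.92 in p53-/- cells against 11.41, 11.54 and 12.25 in WT cells, and at 18 h it read 10.56, 10.83 and 10.01 in p53-/- cells against 11.51, 11.76 and 11.88 in WT cells. All 9 p53-/- values lay below all 9 WT values.

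The Ppp3ca difference was -1.50 ± 0.197 at 6 h (2.83-fold lower in p53-/- cells, limma adjusted p = 0.000142), and this call held with any array left out (-1.73 to -1.31). At 18 h it was -1.03 ± 0.224 (limma adjusted p = 0.00445), with B at 0.32. That call was lost in 11 of the 18 fits that left out 1 array, those without WT 0 h replicates 1 or 2, any WT 18 h array, p53-/- 0 h replicates 1 or 2, p53-/- 6 h replicate 3 or any p53-/- 18 h array, while the difference stayed between -1.43 and -0.95. It was also lost with only the arrays compared (-1.03). At 0 h it was -0.98 ± 0.246 and not called (limma adjusted p = 0.0173, B = -0.80).

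A second Ppp3ca probe, also detected on all 18 arrays, gave the same direction. At 18 h it read 10.18, 10.94 and 10.50 in p53-/- cells against 11.78, 12.25 and 12.15 in WT cells, without overlap, a log2 difference of -1.53 ± 0.306 (limma adjusted p = 0.00267). That call was lost without p53-/- 18 h replicates 1 (-1.41) or 2 (-1.78), or WT 18 h replicates 1 (-1.61), 2 (-1.37) or 3 (-1.42), and with no filter on detection (-1.50). At 6 h the second probe differed by -1.09 ± 0.268, not called without a block (limma adjusted p = 0.00894, B = -0.85) and called with the replicate number as a random block (-1.11). At 0 h it differed by -1.02 ± 0.335, and the groups overlapped, with p53-/- values from 9.54 to 10.33 and WT values from 10.25 to 11.60. The remaining Ppp3ca probe was undetected on all arrays.

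Ppp3cb, the other catalytic subunit gene, read 12.65, 12.01 and 12.24 in p53-/- cells at 0 h against 12.53, 12.39 and 12.53 in WT cells, a difference of -0.14 (95% interval -0.50 to 0.23). At 6 h it read 11.94, 12.18 and 11.82 in p53-/- cells against 12.38, 12.36 and 12.41 in WT cells, where the groups did not overlap but the difference of -0.34 was not called (95% interval -0.63 to -0.05, limma adjusted p = 0.0903, B = -4.00). At 18 h the difference was -0.23 (-0.56 to 0.10). With median scaling the 18 h difference was -0.56 and was called (limma adjusted p = 0.00102). Changes of the size seen in Ppp3ca lay outside each of these main-fit intervals.

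Ppp3r1, the regulatory subunit gene, lay the other way. It read 12.96, 12.45 and 12.55 in p53-/- cells at 0 h against 12.39, 12.29 and 12.28 in WT cells, and 12.64, 12.49 and 12.99 in p53-/- cells at 18 h against 12.15, 12.32 and 12.25 in WT cells. At 6 h it read 12.13, 12.32 and 12.20 in p53-/- cells against 12.07, 12.02 and 12.07 in WT cells. The groups did not overlap at 0, 6 or 18 h, with p53-/- cells above WT cells, but the differences of 0.34 ± 0.153, 0.18 ± 0.122 and 0.30 ± 0.139 were not called (limma adjusted p = 0.159, 0.336 and 0.143). The second probes of Ppp3cb and Ppp3r1 were undetected on every array.

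Over time without IL-3, few member probes changed, and those that were called changed in WT cells. In p53-/- cells none of the 14 was called by limma at 6 h against 0 h (3 at an unadjusted p under 0.05), at 18 h against 6 h (2) or at 18 h against 0 h (1), beside 1.7%, 1.47% and 3.58% of all tested probes. Of the last, 1.34% were higher and 2.23% lower. In WT cells none was called at 6 h against 0 h (2 at an unadjusted p under 0.05), beside 6.38% of all probes. At 18 h against 6 h in WT cells 3 of 14 (21.4%) were called, 2 higher and 1 lower, beside 8.02%. At 18 h against 0 h in WT cells 2 of 14 (14.3%) were called, 1 higher and 1 lower, beside 18.2% (8.88% higher and 9.34% lower), so that count did not stand above the background.

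The WT calls were the Calm2 fall described above and higher readings of Camkk2 probe 2 and Camk1 at 18 h. Both of these probes passed the detection filter only through the WT groups in which they are high, so their calls are descriptions and Calm2 alone is read from the counts. Camkk2 probe 2 read 4.73, 5.10 and 5.22 at 0 h in WT cells, 5.59, 4.95 and 5.64 at 6 h and 6.30, 6.51 and 5.64 at 18 h. It was at least 1.41-fold higher at 18 h than at 0 h, where it was undetected (limma adjusted p = 6.01e-05), and 1.04 ± 0.196 higher on the log2 scale at 18 h than at 6 h (limma adjusted p = 0.00161). The 18 h against 0 h call was lost without WT 18 h replicates 1 or 2. The 18 h against 6 h call was lost without WT 6 h replicate 2 (0.72) or WT 18 h replicates 1 (0.78) or 2 (0.66), with the fixed replicate block (0.96) and with no filter on detection (0.86).

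Camk1 in WT cells read 4.88, 4.94 and 5.05 at 6 h and 5.77, 5.47 and 5.42 at 18 h, of which 5.77 alone was detected. No size is given for this difference, since the probe was undetected at 6 h and was tested only through its 1 detected array. The call (limma adjusted p = 0.00307) was lost with the fixed replicate block and without WT 6 h replicates 1 or 2 or WT 18 h replicate 2. The second Ppp3ca probe in WT cells missed the condition on B at 18 h against 0 h (1.13 ± 0.248, limma adjusted p = 0.00173, B = -0.09) and was called with the fixed block (1.22) and with the random block (1.15). With the fixed block it was also called at 18 h against 6 h in WT cells (0.79).

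**Figure D3:**
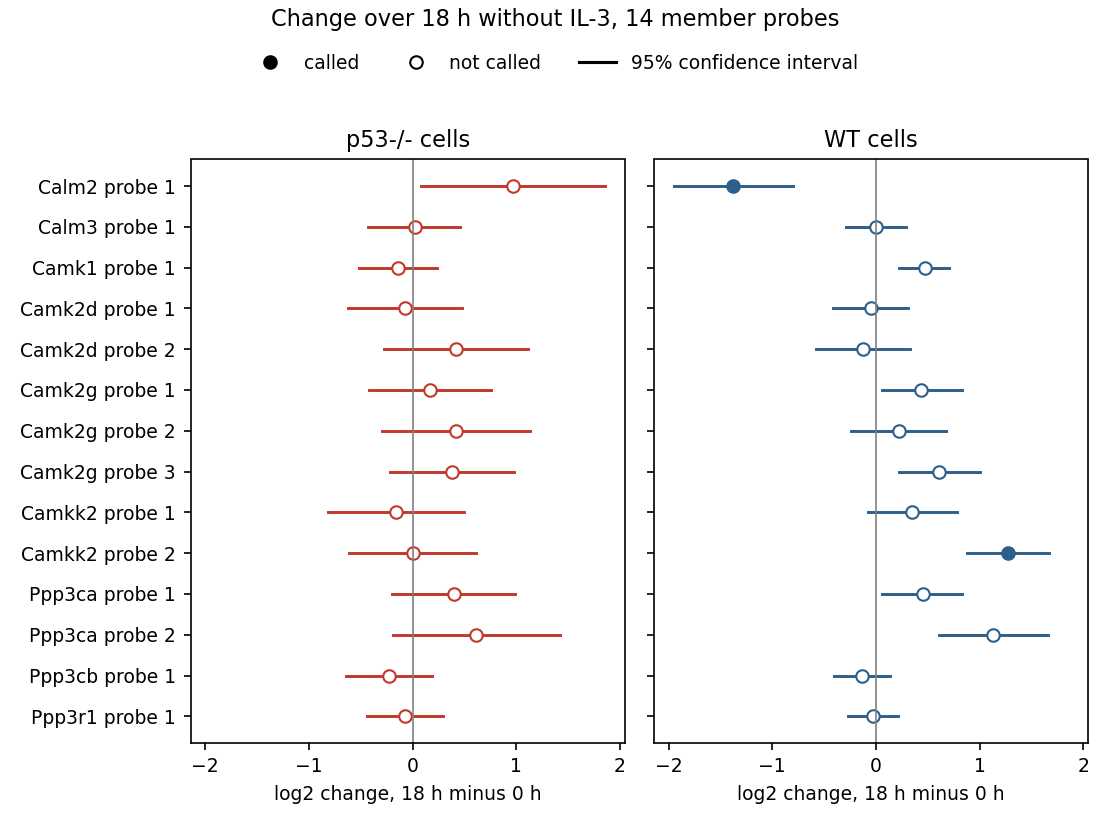
Log2 change, 18 h minus 0 h without IL-3, of the 14 tested member probes in p53-/- cells (left) and WT cells (right), with 95% confidence intervals. Filled points were called, and these are Calm2 (-1.38) and Camkk2 probe 2 in WT cells, which was undetected at 0 h, while no point is filled in p53-/- cells.

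Compared directly, the change from 0 h to 6 h differed between p53-/- and WT cells for none of the member probes by limma (1 at an unadjusted p under 0.05), beside 0.014% of all probes. The change from 0 h to 18 h differed for 1 of 14 (7.14%), Calm2, beside 1.31%. For Camkk2 probe 2 that difference was not called (limma adjusted p = 0.0634, B = -1.24), so the higher WT readings of this probe are not shown to differ from p53-/- cells in their course.

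The promoter windows of Calm3, Ppp3cb and Ppp3r1 are shown, members detected on all arrays and not called in the main fit. That of Camkk2 is added, the member called between genotypes for which a window was matched. RefSeq windows of 250 bases before to 50 bases after a start site (GRCm38.p6) matched 6 of the 9 members, all but Calm2, Camk2g and Ppp3ca. For Camkk2 and Camk2d that start site lay inside the gene, whose outermost start was base 122779522 for Camkk2 and base 126595487 for Camk2d. The sequences run 5′ to 3′ on the strand of the gene, capitals marking GGGCGG, the box bound by SP1, on either strand (CCGCCC on the other) and CCAAT on either strand.
Calm3, chr7:16923983-16924282, minus strand: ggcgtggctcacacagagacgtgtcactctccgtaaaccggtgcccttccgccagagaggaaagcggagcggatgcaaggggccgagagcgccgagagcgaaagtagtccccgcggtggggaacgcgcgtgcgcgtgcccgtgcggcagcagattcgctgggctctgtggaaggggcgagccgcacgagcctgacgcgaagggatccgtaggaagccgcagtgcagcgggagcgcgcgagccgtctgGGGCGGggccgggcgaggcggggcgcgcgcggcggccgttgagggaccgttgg
Ppp3cb, chr14:20546524-20546823, minus strand: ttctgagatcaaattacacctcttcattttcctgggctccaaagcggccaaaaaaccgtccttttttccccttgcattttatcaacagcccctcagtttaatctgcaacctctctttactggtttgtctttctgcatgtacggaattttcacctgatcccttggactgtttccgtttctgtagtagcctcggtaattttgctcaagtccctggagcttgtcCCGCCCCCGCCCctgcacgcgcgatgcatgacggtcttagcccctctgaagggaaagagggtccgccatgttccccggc
Ppp3r1, chr11:17159048-17159347, plus strand: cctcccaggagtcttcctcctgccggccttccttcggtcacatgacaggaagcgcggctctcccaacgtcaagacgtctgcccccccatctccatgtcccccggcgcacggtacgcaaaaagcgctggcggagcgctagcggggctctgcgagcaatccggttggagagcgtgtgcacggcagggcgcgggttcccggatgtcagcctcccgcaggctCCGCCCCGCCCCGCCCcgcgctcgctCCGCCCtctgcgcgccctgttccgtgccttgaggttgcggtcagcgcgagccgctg
Camkk2, chr5:122779361-122779660, minus strand: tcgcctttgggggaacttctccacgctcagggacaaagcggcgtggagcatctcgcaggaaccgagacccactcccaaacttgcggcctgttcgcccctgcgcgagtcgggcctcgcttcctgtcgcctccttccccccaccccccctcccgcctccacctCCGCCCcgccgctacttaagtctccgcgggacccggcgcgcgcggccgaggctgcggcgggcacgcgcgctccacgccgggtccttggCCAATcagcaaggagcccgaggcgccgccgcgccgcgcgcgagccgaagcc

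Matches to GGGCGG were found in 5 of the 6 windows, 4 in Ppp3r1, where 3 of them share an end base with a neighbour, 3 in Camk2d, 2 in Ppp3cb and 1 each in Calm3 and Camkk2. Of 32851 mouse windows of this length, 35.7% held such a match. CCAAT was in 1 of the 6 windows (37.4% of all), TATAAA in none (13.6% of all) and TGACGTCA, the full cyclic AMP response element, in none (1.79% of all). Its first bases, TGACG on either strand, were in 4 windows, those of Calm3, Camk1, Ppp3cb and Ppp3r1 (20.8% of all). The core motif of p53, as a single repeat, matched in 1 window, that of Ppp3cb, beside 8.36% of all. Calm3, Camkk2, Ppp3r1 and Camk2d had GC contents of 72.0, 73.3, 70.7 and 70.3%, above the upper quartile of all windows (61.7%), while Ppp3cb had 51.0%. A match is a run of letters and says nothing of binding in these cells.

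Genes around the members were followed as 5 lists, counted in probes. Calls of list genes were not followed under other processing or with arrays left out. The member calls between genotypes at 18 h were all lost without p53-/- 18 h replicate 1 or 2, and the list calls rest on the same arrays. Other calmodulin-dependent kinases, calmodulins, calcineurin subunits and enzymes that calmodulin drives had 21 tested probes, of which 1, 2 and 2 (4.76%, 9.52% and 9.52%) were called between genotypes at 0, 6 and 18 h, beside 4.33%, 8.05% and 7.43% of all probes. Over 18 h, 1 of the 21 (4.76%) was called in p53-/- cells, beside 3.58% of all probes, and 5 (23.8%) in WT cells, all higher, beside 18.2% (8.88% higher). Pde1b, a calmodulin-activated enzyme that breaks down cyclic nucleotides, rose in WT cells. It averaged 8.08 ± 0.37 at 0 h, 8.68 ± 0.26 at 6 h and 9.21 ± 0.99 at 18 h in p53-/- cells, and 8.66 ± 0.14, 9.86 ± 0.21 and 10.54 ± 0.45 in WT cells (SD, n = 3 each). Its rise over 18 h in WT cells was 2.08 ± 0.215 on the log2 scale (limma adjusted p = 2.51e-06). In p53-/- cells its change of 0.69 was not called, and the genotype difference in change was -1.39 (limma adjusted p = 0.0735), also not called. Cask, a calmodulin-dependent kinase family scaffold, rose over 18 h in WT cells by 1.20, and Phkg2, a phosphorylase kinase subunit that was undetected in WT cells at 0 h, rose at least 1.81-fold. In p53-/- cells Cask averaged 6.49 ± 0.12 at 0 h and 7.09 ± 0.29 at 18 h, without overlap. Phkg2 averaged 5.81 ± 0.39 and 6.29 ± 0.62 there, with overlap. Dapk1, a calmodulin-regulated death-associated kinase, was detected on 2 arrays, both p53-/- at 18 h, where it was at least 1.19-fold higher than in WT cells. It passed the detection filter only through that group, so its call is a description, and its lowest p53-/- value of 4.64 lay within the WT range.

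The list of calcineurin regulators and NFAT factors had 23 tested probes, with 1, 3 and 2 (4.35%, 13% and 8.7%) called between genotypes at 0, 6 and 18 h, near the 4.33%, 8.05% and 7.43% of all probes. Nfatc1, an NFAT factor that calcineurin dephosphorylates, averaged 9.61 ± 0.40 in p53-/- cells and 10.53 ± 0.10 in WT cells at 18 h, a called log2 difference of -1.11 ± 0.197 (limma adjusted p = 0.00121). Dyrk1a, a kinase that opposes NFAT activation, was lower in p53-/- cells at 6 h by -1.61 ± 0.222 (limma adjusted p = 0.000197). Fkbp1a, the FK506-binding protein, fell in both genotypes over 18 h, by -1.23 ± 0.274 in p53-/- cells and -1.43 ± 0.178 in WT cells (limma adjusted p = 0.0113 and 1.36e-05). Nfat5 rose in WT cells by 1.17. In p53-/- cells it averaged 6.49 ± 0.22 at 0 h and 7.12 ± 0.47 at 18 h, without overlap but not called.

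Targets of the kinases (CREB and its coactivators, MEF2 factors, class IIa histone deacetylases and AMP-activated kinase subunits) had 20 tested probes, with 0, 0 and 3 (15% at 18 h) called between genotypes at 0, 6 and 18 h, beside 4.33%, 8.05% and 7.43% of all probes. At an unadjusted p under 0.05 limma gave 3, 6 and 7. Over 18 h in WT cells 6 of 20 were called (30%), 4 higher and 2 lower, beside 18.2% of all probes, and none in p53-/- cells (4 at an unadjusted p under 0.05). Hdac4, a deacetylase whose export from the nucleus the kinases drive, averaged 7.47 ± 0.30 in p53-/- cells and 8.34 ± 0.15 in WT cells at 18 h (log2 difference -0.94 ± 0.183, limma adjusted p = 0.00238). Its change over 18 h differed between the genotypes by -1.21 ± 0.272 (limma adjusted p = 0.0355). Crtc1, a CREB coactivator, behaved alike in the fit (difference in change -1.56 ± 0.322, limma adjusted p = 0.0256), but its p53-/- values at 18 h spread from 6.57 to 8.25 and overlapped the WT values of 7.45 to 7.88. Hdac5 rose by 1.30 in WT cells. In p53-/- cells it averaged 9.53 ± 0.12 at 0 h and 10.51 ± 0.32 at 18 h, also without overlap, though not called. Crem, a repressor and activator of cyclic AMP targets, fell in WT cells between 6 h and 18 h to an undetected level (at least 1.35-fold).

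Calcium entry, release and clearance had 25 tested probes from 17 genes. Of these, 0 (6 at an unadjusted p under 0.05), 1 and 8 were called by limma between genotypes at 0, 6 and 18 h. Over all probes 4.33%, 8.05% and 7.43% were called at these times. The 8 calls at 18 h (32%) were 1 higher and 7 lower in p53-/- cells, beside 3.68% higher and 3.75% lower over all probes. Plcb2, the phospholipase that makes inositol trisphosphate, averaged 9.80 ± 0.51 in p53-/- cells and 10.71 ± 0.33 in WT cells at 18 h (log2 difference -1.25 ± 0.203, limma adjusted p = 0.000695). Mcu, the pore of the mitochondrial calcium uniporter, differed by -0.89 ± 0.184 (limma adjusted p = 0.00337), and Stim1, the sensor that opens calcium channels when stores empty, was undetected in p53-/- cells and at least 1.48-fold lower there. Stim1 too passed the filter only through WT arrays without IL-3. Its calls are descriptions and are not read as support for the count at 18 h. Plcb2, Mcu and Itpr3, a calcium release channel, rose in WT cells over 18 h, by 1.59 for Plcb2, 0.86 for Mcu and 1.34 for Itpr3. In p53-/- cells Plcb2 averaged 9.12 ± 0.08 at 0 h, below each of its 18 h values, though its rise was not called. The 0 h and 18 h values of Mcu and Itpr3 overlapped there. The median over the 25 probes at 18 h was -0.18 between genotypes, beside 0.02 over all probes.

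Calmodulin-binding buffers and scaffolds had 20 tested probes, with 1, 0 (6 at an unadjusted p under 0.05) and 2 called by limma between genotypes at 0, 6 and 18 h (5% and 10% at 0 and 18 h), beside 4.33%, 8.05% and 7.43% of all probes. Iqgap2, a scaffold with calmodulin-binding motifs, averaged 10.67 ± 0.55 at 0 h, 12.45 ± 0.36 at 6 h and 10.98 ± 0.34 at 18 h in p53-/- cells, and 12.33 ± 0.28, 12.72 ± 0.30 and 12.46 ± 0.85 in WT cells. The genotype difference was -1.81 ± 0.354 at 0 h and -1.50 ± 0.323 at 18 h, and the rise in p53-/- cells by 6 h was 1.69 ± 0.376 (limma adjusted p = 0.00483, 0.00428 and 0.0263). Iqgap1 was lower in p53-/- cells at 18 h (-1.19), but its p53-/- values of 5.22 to 6.71 overlapped the WT values of 5.83 to 7.02. Add3 fell in WT cells and Iqgap3 in p53-/- cells between 6 h and 18 h (-1.16 and -1.33). The other genotype moved the same way. Add3 averaged 6.85 ± 0.22 at 6 h and 5.99 ± 1.07 at 18 h in p53-/- cells, and Iqgap3 6.37 ± 0.40 and 5.82 ± 0.56 in WT cells. A genotype difference in change between 6 h and 18 h was not tested.

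Across the 18 arrays, the member probes closest to each other were Camk2g probe 1 and Ppp3ca probe 1 (Pearson r = 0.966), followed by the 2 Ppp3ca probes (0.876) and Camk2g probe 1 with the second Ppp3ca probe (0.855). Calm3 and Ppp3r1 had r = 0.83, and Calm2 ran against Ppp3r1 (-0.735) and Calm3 (-0.609). Outside the members, among 11186 genes, Gyg had the pattern most like both Camk2g (0.968) and Ppp3ca (0.967), next to Reep3 for Camk2g (0.958) and Insl3 for Ppp3ca (0.961). Calm2 was most like Rgs19 (0.947) and Gng5 (0.919), Camkk2 probe 1 most like Rnf19b (0.916) and Cbx2 (0.903), and Camk1 most like Erich1 (0.772) and Asxl1 (0.759). These values describe arrays that share clones and genotypes, and they carry no test.

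Some marker genes of other cell types differed between genotypes too. Summed over each list on the linear normalized scale, 8 monocyte and macrophage genes reached 12100 to 40500 on p53-/- arrays and 44000 to 73500 on WT arrays, 9 neutrophil genes 467 to 1020 on p53-/- and 1880 to 72900 on WT arrays, and 5 lymphoid genes 256 to 2690 on p53-/- and 13300 to 30500 on WT arrays. The 12 erythroid and megakaryocyte genes summed to 20800 to 57200 on p53-/- arrays and 8380 to 22700 on WT arrays, the 8 mast cell and basophil genes to 52300 to 76500 on p53-/- and 71400 to 108000 on WT arrays, and the 10 myeloid progenitor genes to 10800 to 20300 on p53-/- and 12200 to 30800 on WT arrays. Of the progenitor genes Kit was undetected in all groups but p53-/- 18 h. Cd3e, Cd4 and Cd79a were undetected in every group, as were Mmp8, Mrc1, Tpsab1 and Tpsb2, while S100a8, Ltf and Csf3r were undetected in all p53-/- groups. Over all tested probes 4.33%, 8.05% and 7.43% were called between genotypes at 0, 6 and 18 h. At these times limma called 2, 3 and 4 of 13 erythroid and megakaryocyte probes (15.4%, 23.1% and 30.8%), all higher in p53-/- cells. It called 3, 3 and 0 of 9 mast cell and basophil probes (33.3% at 0 h and at 6 h), all lower. Of 10 monocyte and macrophage probes 1, 1 and 0 were called and of 11 neutrophil probes 0, 1 and 1, all lower. These monocyte and neutrophil counts stood near the share over all probes. Of 7 lymphoid probes 1, 2 and 2 were called, 1 lower at 0 h and 1 higher and 1 lower at both 6 h and 18 h. The median log2 difference of the lymphoid probes was 0.48, -0.05 and 0.69, so their lower sums in p53-/- cells do not describe every probe. Of 15 progenitor probes 1, 0 and 0 were called. At an unadjusted p under 0.05 the counts at 18 h were 2 mast cell and basophil, 3 monocyte and macrophage and 3 progenitor probes. The part of these marker differences in the lower Calm2, Camk2g and Ppp3ca levels was not tested. In such bulk RNA fewer cells of a type and less RNA per cell cannot be told apart.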

How the data were processed

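RNA of 18 cultures (6 groups of 3) was hybridised to Illumina MouseWG-6 V1 arrays. The authors deposited probe intensities that were not normalized with a detection score per probe, a fraction that is high for detected probes and was subtracted from 1 to give the p-value of detection. They also deposited log2 values made with lumi, whose version is not given in the sources used here; these served as an alternative. The deposited intensities were background-corrected by normexp with an offset of 16, quantile normalized and put on the log2 scale (neqc, limma 3.58.1, R 4.3.3). Of 46632 probes, 21413 with a detection p below 0.01 on at least 1 array were kept. Of all probes, 29976 carry 1 gene symbol, 10 several and 16646 none.

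All 18 arrays entered 1 linear model of the 6 groups with array weights, and 11 comparisons were drawn from it. The authors left out 1 sample as an outlier, which they do not name, so their set of arrays differs from this one. A call needed an adjusted p of at most 0.1 and B above 0. An exact permutation test of 3 against 3 cannot go below 0.1 and was not used. The number of arrays limits the precision.

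The authors describe 3 independent clones per genotype. A replicate number was taken to mark a clone within a genotype, which no label states. Deviations from the group means correlated at 0.276 to 0.756 between same-numbered arrays of a genotype (18 pairs). They correlated at -0.602 to 0.256 between other numbers of a genotype at other times. Same-numbered arrays of the 2 genotypes at the same time gave -0.0417 to 0.0336. Other numbers within a group are not in these ranges, and p53-/- 18 h replicates 1 and 2 correlated at 0.438. The members and lists were chosen with earlier results of these data known. All 9 members are named, with up to 4 genes of each of the 5 role lists by smallest p, and the 2 genes most like each called member. The scripts were tested on simulated data. Alternatives were the background correction, the scaling, the deposited log2 values, the filter, the weights, the arrays fitted, the threshold, the replicate block and each array left out. Calls of single probes were followed through these alternatives for the members only, not for the list or marker genes. Bounds on undetected probes use the lowest signal of a detected probe. Sequences come from RefSeq, and figures were drawn with matplotlib 3.10.9.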

Additional observations from a re-analysis of the deposited data

Results flagged for a closer look

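The change in Calm2 between 0 h and 18 h differed between p53-/- and WT cells by 2.35 ± 0.499 on the log2 scale (limma adjusted p = 0.0289), with a change of 0.97 in p53-/- cells and -1.38 in WT cells. It was 1.07 with no background correction and 0.60 in the authors' processed values, and not called in either. The same difference was called for 3 genes of the role lists, whose calls were not followed through the alternatives. It was 1.44 for Dapk1 (limma adjusted p = 0.0253), which was detected on 2 arrays, both p53-/- at 18 h, and passed the detection filter only through that group, -1.56 for Crtc1 (limma adjusted p = 0.0256) and -1.21 for Hdac4 (limma adjusted p = 0.0355).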

How the results depend on the processing

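Of the 13 called member results, 2 were called under every alternative run, Calm2 at 0 h and Ppp3ca probe 1 at 6 h between p53-/- and WT cells, and none changed sign. The counts of called member probes that moved by more than 1.5 times, or to or from 0, are given here with the main count in parentheses. For the genotype difference in change from 0 h to 18 h (1), the count was 0 with no background correction, with the authors' processed values, with no filter on detection, with no array weights and with only the arrays compared, and 2 with median scaling. Median scaling also gave 8 at 18 h between genotypes (4) and 1 for 18 h against 0 h in p53-/- cells (0). The added calls at 18 h between genotypes were Camk1, Camk2g probe 3, Camkk2 probe 1 and Ppp3cb, all lower in p53-/- cells. At 0 h between genotypes (1) the count was 2 with no filter on detection and with only the arrays compared, and at 6 h (2) it was 1 with only the arrays compared. For 18 h against 6 h in WT cells (3) it was 1 with no filter and 0 with no weights or only the arrays compared, and for 18 h against 0 h in WT cells (2) it was 1 in both of these. For 6 h against 0 h in p53-/- cells (0) it was 1 with only the arrays compared and 1 with the fixed replicate block. An adjusted p of 0.05 with no condition on B gave 3 at 0 h, 4 at 6 h and 5 for 18 h against 0 h in WT cells. An adjusted p of 0.1 with no condition on B, chosen after seeing the data, gave 5 at 0 h, 5 at 6 h, 1 for 6 h against 0 h in p53-/- cells, 5 for 18 h against 6 h and 7 for 18 h against 0 h in WT cells, and 2 for the difference in change to 18 h.

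Leaving out each array gave 1 to 3 calls at 0 h, 1 to 3 at 6 h and 0 to 4 at 18 h between genotypes, 0 to 1 for 6 h against 0 h in p53-/- cells, 0 to 3 for 18 h against 6 h and 0 to 3 for 18 h against 0 h in WT cells, and 0 to 2 for the difference in change to 18 h. In WT cells no member was called for 18 h against 6 h or against 0 h without WT 18 h replicates 1 or 2, and 1 was called for 18 h against 6 h without WT 6 h replicates 1 or 2 and for 18 h against 0 h without WT 0 h replicates 1 or 2. The count of 1 for 6 h against 0 h in p53-/- cells came without p53-/- 18 h replicate 2. The fixed replicate block changed 5 of 112 member calls and the random block 2 of 154, all given above. Median scaling moved the split of all calls to 223 higher and 567 lower at 0 h (423 and 504 otherwise), 1380 and 2421 at 18 h (788 and 802), 210 and 619 for 6 h against 0 h in WT cells (549 and 818), 343 and 1369 for 18 h against 6 h in p53-/- cells (95 and 219) and 196 and 160 for 6 h against 0 h in p53-/- cells (152 and 211). The cause of these changes was not tested. Smaller moves were 3 at 18 h between genotypes (4) with no filter or only the arrays compared and 6 with either threshold without B, 2 for 18 h against 6 h in WT cells (3) with no background correction, median scaling, the authors' values, the stricter filter or the fixed block and 4 at an adjusted p of 0.05 without B, 3 for 18 h against 0 h in WT cells (2) with no background correction, the authors' values, the stricter filter or either block, and 3 at 6 h between genotypes (2) with the random block. A slide block was not run, since the headers name no slide.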
